A study of Mus musculus with 12 samples.

Results

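Genes of the complement system were followed across 4 groups of mouse macrophages. They were C1qa, C1qb and C1qc, C3, C3ar1, C5ar1, Cfp and Serping1, 8 of the 48526 genes in the count table. The genes form a fixed list of symbols, found in the table by their Ensembl identifiers, and all 8 passed the filter on low counts. The list was written with earlier results of these same libraries known, and C1qa is among the genes that the study itself selected for a difference between the genotypes after LPS. The fitted values of the 8 genes are therefore given as a description of these libraries and not as independent evidence.

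Bone marrow-derived macrophages (BMDMs) were grown for 6 d in L929-conditioned medium, a source of macrophage growth factor, and then kept for 6 hr in PBS (UT) or with lipopolysaccharide (LPS), the bacterial cell wall component that Toll-like receptor 4 senses. The cells came from HSS9 KO homozygotes, which carry a germline deletion upstream of Tnf, or from HSS9+/+ WT controls, and each genotype and treatment (WT UT, WT LPS, KO UT and KO LPS) had 3 total RNA libraries. By the study's methods all mice were young adult males. The labels call the controls littermates, whereas the methods describe purchased C57BL/6 mice and a KO line kept by breeding homozygotes, so the deletion and any other genetic difference between the lines cannot be told apart. Nothing in the labels says which libraries share an animal, and p-values then measure only the spread between these libraries.

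Complement is a cascade of serum proteins that marks microbes and dying cells for uptake. C1q, assembled from an A, a B and a C chain, binds its targets and starts the classical pathway, and macrophages are a main source of it. All pathways meet at C3, whose cleavage coats the target and releases C3a, and later C5a is released from C5. C3a and C5a act on macrophages through the receptors C3ar1 and C5ar1, properdin (Cfp) stabilises the alternative-pathway convertase that cleaves C3, and the C1 inhibitor (Serping1) blocks the proteases that C1q carries.

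The C1q genes lie side by side on the minus strand of chromosome 4 (GRCm38), with C1qb at 136880129 to 136886187, C1qc at 136889804 to 136893065 and C1qa at 136895917 to 136898803. C3 is on chromosome 17 (57203970 to 57228136), the chromosome that also carries Tnf (35199381 to 35202007). C3ar1 is on chromosome 6 (122847138 to 122856161), C5ar1 on chromosome 7 (16246743 to 16259540), Cfp on chromosome X (20925454 to 20931555) and Serping1 on chromosome 2 (84765387 to 84775444). All 8 are protein-coding genes on the minus strand. In the annotation used, C3 overlaps the microRNA gene Mir6978 on the same strand, and no other of the 8 overlaps an annotated gene.

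RefSeq promoter windows (GRCm38.p6, 250 bases before to 50 after the start) were at hand for 6 of the 8 genes, all but C1qa and Serping1. The windows of C1qb and C1qc are shown because these neighbours in one cluster moved together in the data, and that of C3 because C3 had the largest LPS response of the 8. Each is written 5′ to 3′ on the minus strand, with motif matches in capitals.
C1qb, chr4:136886151-136886450: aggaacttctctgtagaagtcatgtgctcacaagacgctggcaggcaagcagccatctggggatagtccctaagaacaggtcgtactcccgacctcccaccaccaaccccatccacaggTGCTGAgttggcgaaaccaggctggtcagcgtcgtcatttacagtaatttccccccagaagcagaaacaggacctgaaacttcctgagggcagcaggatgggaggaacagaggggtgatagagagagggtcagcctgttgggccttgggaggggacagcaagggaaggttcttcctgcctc
C1qc, chr4:136892865-136893164: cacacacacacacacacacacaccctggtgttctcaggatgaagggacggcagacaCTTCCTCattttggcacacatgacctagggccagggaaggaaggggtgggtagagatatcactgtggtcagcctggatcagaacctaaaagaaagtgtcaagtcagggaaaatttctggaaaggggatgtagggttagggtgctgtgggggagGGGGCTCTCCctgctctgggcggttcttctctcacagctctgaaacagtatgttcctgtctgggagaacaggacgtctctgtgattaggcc
C3, chr17:57228087-57228386: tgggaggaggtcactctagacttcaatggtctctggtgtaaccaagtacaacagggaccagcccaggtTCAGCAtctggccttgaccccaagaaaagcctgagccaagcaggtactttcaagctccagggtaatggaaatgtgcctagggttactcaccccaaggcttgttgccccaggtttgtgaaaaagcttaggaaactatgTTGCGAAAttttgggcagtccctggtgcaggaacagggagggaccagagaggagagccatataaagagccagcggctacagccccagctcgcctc

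The windows were searched on both strands for 6 motifs. They were an interferon response element (GAAA, any 2 bases, GAAA), an ETS-IRF composite site (GGAA, any 2 bases, GAAA), a PU.1 site (GAGGAAG), a C/EBP site (TTGCNNAA), the NF-kappaB consensus by name, and a MAF core (TGCTGA). The capitals in C1qb mark a MAF core. Those in C1qc mark a PU.1 site read on the other strand (CTTCCTC) and, closer to the start, an NF-kappaB consensus match. The RefSeq start of C1qc lies inside the gene as placed above, which reaches to 136893065. The NF-kappaB match, though before the RefSeq start, thus lies within that gene. Those in C3 mark a MAF core read on the other strand (TCAGCA) and a C/EBP site 45 to 38 bases before the start. C3ar1 and C5ar1 each held a MAF core and Cfp held none of the motifs. Of 32817 promoter windows, 19.5% held the MAF core, 13.6% the PU.1 site, 10.8% the C/EBP site, 4.50% the NF-kappaB consensus, 3.43% the interferon element and 2.72% the composite site. The matches are a description of these letters.

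Library totals ranged from 26154533 to 36423921 counts, so that all of the 8 genes but Serping1 rested on at least 2885 counts in every library. Levels are CPM, counts scaled to a common library size by the TMM method. The TMM factors, by which library totals were multiplied, were 1.29 in WT UT and 1.15 to 1.18 in KO UT. In the LPS groups they were 0.81 to 0.82. The sizes of the LPS changes, and the signs of small ones, therefore depend on this scaling, and a fit without it was not run. Tnf, the gene beside the deletion, was at 15.3 ± 0.757 CPM in WT UT and 9.71 ± 0.727 CPM in KO UT (SD, n = 3 in each), and at 890 ± 57.4 CPM in WT LPS and 432 ± 15.2 CPM in KO LPS. The 8 macrophage markers (Adgre1, Csf1r, Cd68, Mertk, Fcgr1, Cd14, Lyz2 and Mrc1) were present in every library and summed to 27884 to 34535 CPM. Markers of other cells were low, at most 44.2 CPM summed over 10 stromal genes and at most 113 CPM over 8 neutrophil genes, with the neutrophil gene Ly6g at 0 in all 12 libraries, and at most 15.2, 1.79 and 8.33 CPM over the dendritic, B cell and T cell lists. Short structured RNAs took 4.30 to 4.48% of counts in WT UT, 8.04 to 9.14% in KO UT, 4.97 to 7.71% in WT LPS and 4.33 to 4.43% in KO LPS. In bulk RNA, fewer cells of a type and less RNA per cell cannot be told apart.

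All of the 8 genes but Serping1 were well expressed. On the scale of CPM per kilobase of exon, averaged over the 12 libraries, C1qb ranked 105 of 12231 protein-coding genes tested, C1qc 122, C1qa 128, C3ar1 153, Cfp 336, C3 417 and C5ar1 569. Serping1 ranked 10472. The plot of the members by library shows these levels in all 4 groups.

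**Figure D1:**
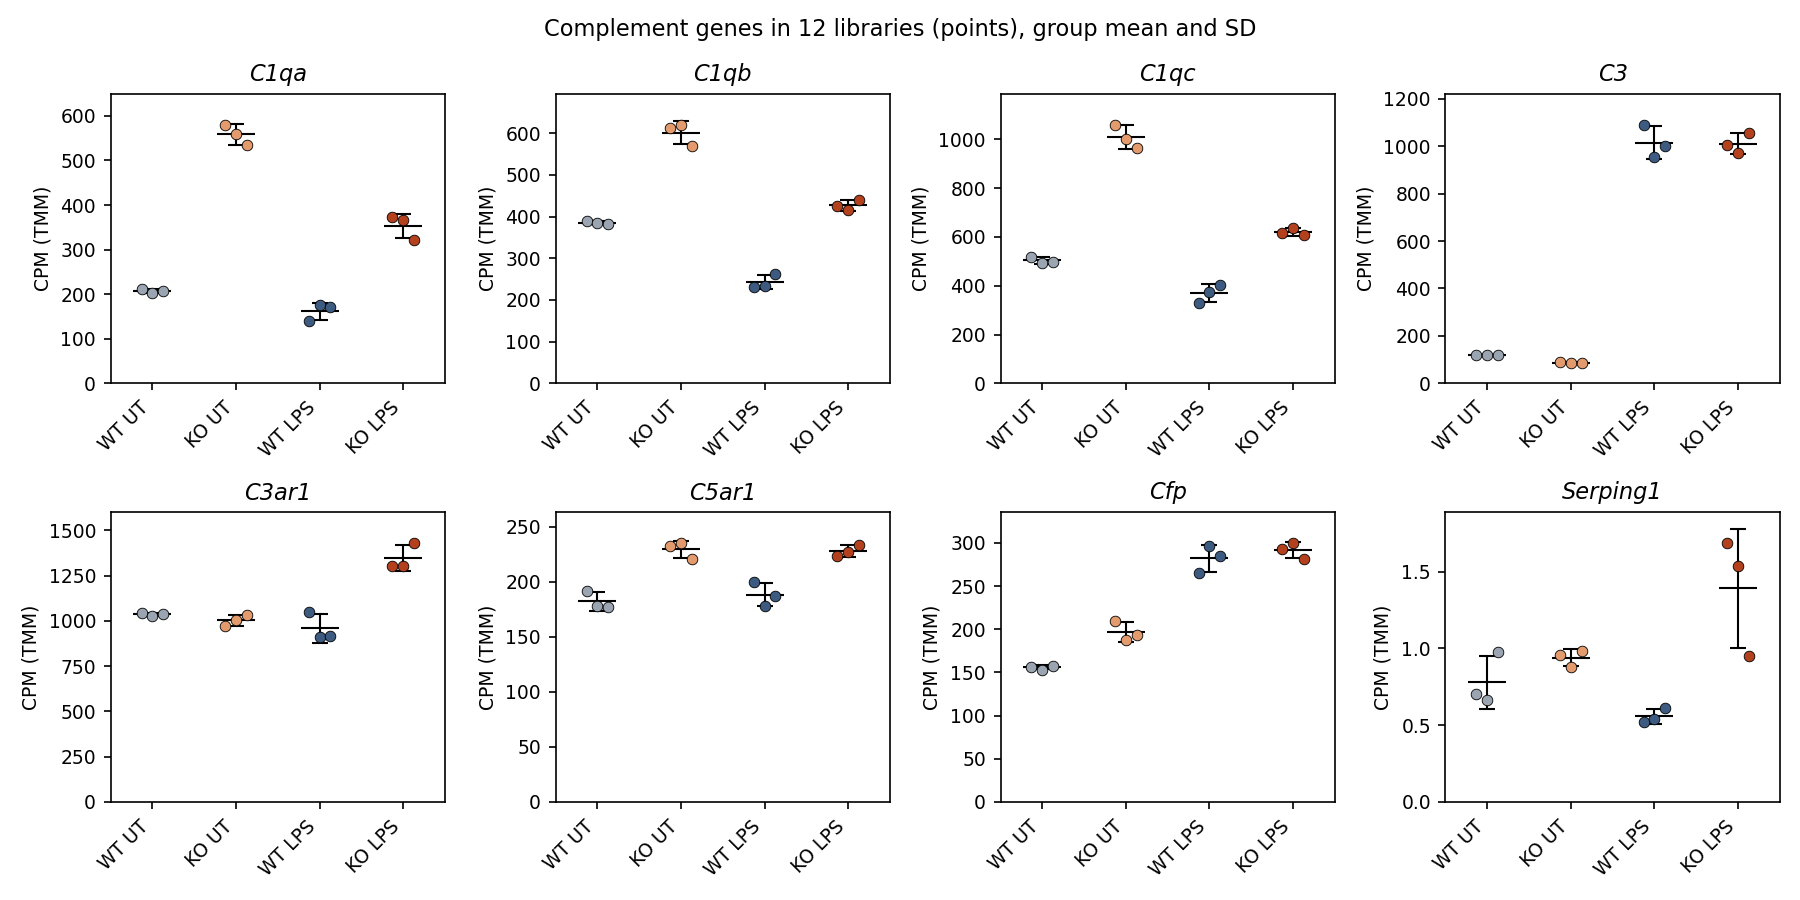
CPM after TMM scaling (vertical axes, each from 0) of the 8 complement genes in the 4 groups; points are the 3 libraries of a group and bars are the mean and SD. The KO libraries lie above the WT libraries of the same treatment for C1qa, C1qb and C1qc, the LPS libraries lie far above the UT libraries for C3, and KO LPS lies above the other groups for C3ar1.

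The first question was how the genes differed between KO and WT cells. The C1q genes were higher in KO cells with and without LPS. C3 was lower in KO cells without LPS, C3ar1 was higher in KO cells after LPS, and C5ar1 was modestly higher in KO cells in both states. Without LPS, 5 of the 8 genes were higher and 1 was lower at an adjusted p below 0.05. Of all 15523 genes tested 23.8% passed, 14.1% higher and 9.69% lower. The fold criterion, which also asks for an absolute log2 fold change above 1, was passed by 2 of 8 (C1qa and C1qc, both higher), against 1.82% of all genes and 1.02% higher. After LPS, 6 of 8 were higher and 0 were lower by edgeR (0 lower also at an unadjusted p below 0.05 and by DESeq2), against 14.3% of all genes, 7.78% higher and 6.54% lower. The fold criterion was passed by 2 of 8 (C1qa and Serping1, both higher), against 1.25% of all genes and 0.586% higher. The groups did not overlap for 6 of 8 genes in each state, against 40.8% of all genes without LPS and 29.1% after LPS. The median log2 fold change of the 8 genes was 0.34 without LPS and 0.62 after LPS, beside 0.0014 and -0.0075 over all genes. Over 15 alternatives 2 to 5 of the 8 were higher and 0 to 1 lower without LPS, and 5 to 6 higher after LPS. The fewest without LPS, 2 higher with 0 lower and 0 past the fold criterion, came with the share of short structured RNAs as a covariate. These counts describe genes that were picked with the results known.

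C1qa encodes the A chain of C1q. It was at 212, 202 and 206 CPM in the WT UT libraries and at 580, 559 and 535 CPM in the KO UT libraries. After LPS it was at 140, 176 and 170 CPM in WT and at 372, 366 and 322 CPM in KO. Every KO library thus lay above every WT library, the lowest KO value being the 322 CPM of a library treated with LPS. The level in KO was 2.70-fold that in WT without LPS (log2 fold change 1.43, SE 0.07, adjusted p = 1.45e-11) and 2.18-fold after LPS (log2 fold change 1.13, SE 0.07). No p is given for the latter, since the study had selected C1qa on that difference.

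C1qb, the B chain, had the tightest WT values of the C1q genes. Its libraries read 390, 385 and 382 CPM in WT UT and 613, 620 and 570 CPM in KO UT. With LPS they read 231, 234 and 262 CPM in WT and 426, 415 and 439 CPM in KO. The groups of a treatment did not overlap. The fold between KO and WT was smaller than that of C1qa, at 1.56 without LPS (log2 0.64, SE 0.06, adjusted p = 6.00e-08) and 1.76 after LPS (log2 0.81, SE 0.06, adjusted p = 4.36e-09).

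C1qc, the C chain, gave the most counts of the C1q genes and has the longest exons of them, 1931 bases in all. WT UT libraries had 519, 493 and 499 CPM and KO UT libraries 1060, 1002 and 966 CPM. LPS libraries had 331, 373 and 404 CPM in WT and 617, 636 and 607 CPM in KO. Here again the genotypes were fully separated within each treatment. C1qc was 2.00-fold higher in KO without LPS (log2 1.00, SE 0.06, adjusted p = 3.14e-10) and 1.68-fold higher after LPS (log2 0.75, SE 0.06, adjusted p = 6.79e-08). Its log2 value without LPS, 1.0028, lies just inside the fold criterion and fell outside it in 8 of 15 alternative fits, although the adjusted p stayed below 0.05 in all 15.

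The order of the groups was the same for all of the C1q genes: KO UT was highest, then KO LPS, then WT UT, and WT LPS was lowest. Neighbours in that order did not overlap for any of the C1q genes. The share of short structured RNAs was 8.04 to 9.14% in KO UT and 4.30 to 4.48% in WT UT. The ranges did not overlap, so genotype and share cannot be told apart without LPS. A fit with the share as a covariate beside the group means rests only on the spread of the share within groups. With that share as a covariate, the log2 difference without LPS was 0.99 for C1qa (adjusted p = 3.50e-05), 0.31 for C1qb (adjusted p = 0.0872) and 0.54 for C1qc (adjusted p = 0.00108), and the part of this share in the result was not tested further. Marker lists moved as well. The neutrophil list summed to 66.2 to 70.4 CPM in WT UT and 78.8 to 80.5 CPM in KO UT, with 5 of 6 tested higher by the fold criterion, while its most abundant gene in WT UT, Mmp8, was lower in KO UT (49.0 ± 2.86 and 35.8 ± 2.34 CPM, log2 -0.45, adjusted p = 1.88e-05). The stromal list summed to 11.0 CPM in WT UT and 15.7 to 16.3 CPM in KO UT, with 3 of 9 higher by the fold criterion, and to 26.7 to 29.4 CPM in WT LPS and 42.9 to 44.2 CPM in KO LPS, with 7 of 9. Of the 8 macrophage markers, 6 were higher and 1 was lower in KO without LPS at an adjusted p below 0.05, and 5 were higher after LPS. Their sum was 28975 to 30048 CPM in WT UT and 33445 to 34535 CPM in KO UT, and 27884 to 29409 CPM in WT LPS and 30183 to 32032 CPM in KO LPS. The mannose receptor gene Mrc1 had the largest of these differences, 0.74 without LPS (adjusted p = 3.93e-09) and 0.85 after LPS (adjusted p = 3.33e-09) on the log2 scale. The part of these markers in the C1q values was not tested. After LPS the short RNA share was lower in KO than in WT, and with the covariate the log2 differences were 1.32, 0.96 and 0.96.

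Although all of the C1q genes were higher in KO cells, they did not keep the same proportions. Per kilobase of exon, C1qa made up 24.4 ± 0.187% of the summed C1q transcripts in WT UT and 33.3 ± 0.217% in KO UT (SD, n = 3). The share of C1qb was 43.5 ± 0.454% in WT UT and 34.3 ± 0.688% in KO UT, while that of C1qc was 32.0 ± 0.297% and 32.4 ± 0.487%. In WT cells given LPS the shares were 27.3 ± 1.70% for C1qa, 39.2 ± 1.82% for C1qb and 33.5 ± 0.514% for C1qc. In KO cells given LPS they were 32.2 ± 1.84%, 37.3 ± 1.79% and 30.5 ± 0.570%. The C1qa share was thus higher in every KO library (30.1% or above) than in every WT library (29.2% or below), whereas the ranges of the C1qb share overlapped between the genotypes after LPS. No test was run on these shares. The plot of chain shares shows them library by library.

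**Figure D2:**
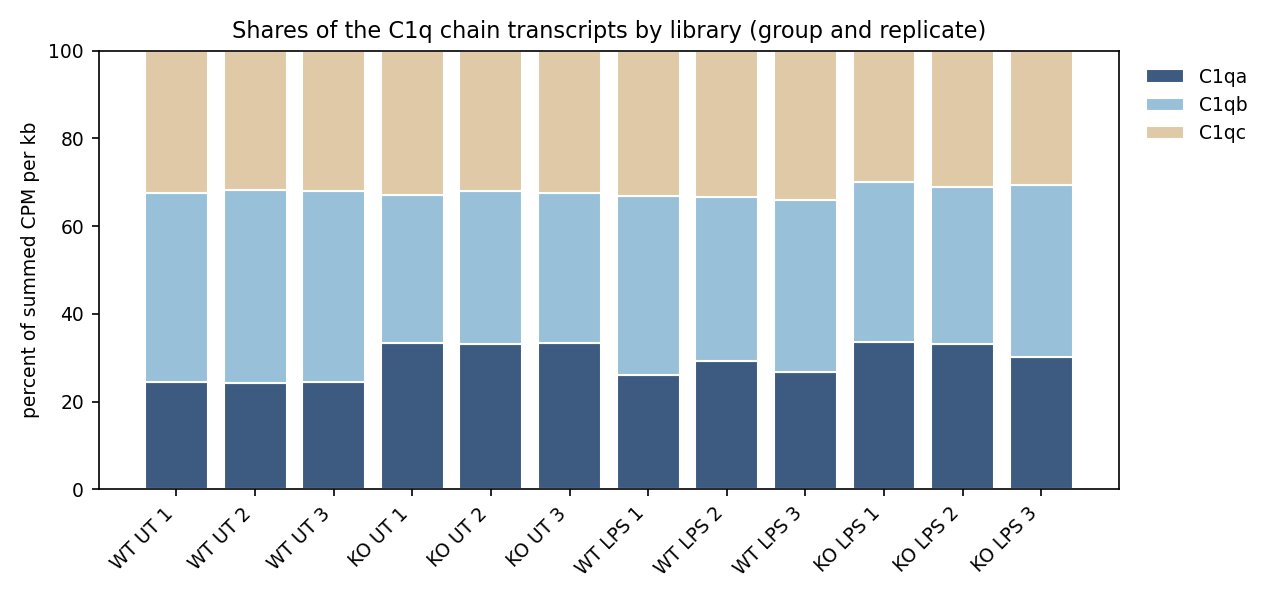
Share of C1qa, C1qb and C1qc in their summed CPM per kilobase of exon (vertical axis, percent, bars stacked to 100) in each of the 12 libraries, named by group and replicate. The C1qa segment is larger in the KO bars (30.1 to 33.5%) than in the WT bars (24.2 to 29.2%).

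C3, the central component, was lower in KO before stimulation. Its level was 118, 121 and 119 CPM in WT UT and 89.9, 84.7 and 86.2 CPM in KO UT. After LPS it was 1091, 953 and 1001 CPM in WT and 1004, 969 and 1057 CPM in KO. KO UT libraries were all below WT UT libraries, whereas the LPS groups overlapped. C3 was lower in KO UT than in WT UT (log2 fold change -0.45, SE 0.06, adjusted p = 4.96e-06). After LPS the difference was -0.01 (95% interval -0.12 to 0.11, adjusted p = 0.951). With the short RNA share as a covariate the UT difference was -0.30 and no longer passed (adjusted p = 0.135).

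Of the anaphylatoxin receptors, C3ar1 was the more abundant. It was at 1043, 1029 and 1040 CPM in WT UT and at 970, 1006 and 1033 CPM in KO UT, so these groups overlapped. In the LPS groups it was at 1051, 911 and 918 CPM in WT and at 1304, 1306 and 1431 CPM in KO. KO LPS stood above all of the other groups, and the other groups could not be ordered beyond their spread. The log2 difference between KO and WT was -0.05 without LPS (95% interval -0.17 to 0.07, adjusted p = 0.605) and 0.49 after LPS (SE 0.06, adjusted p = 7.55e-06).

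C5ar1, the C5a receptor, was ordered by genotype. WT libraries had 192, 178 and 177 CPM in UT and 200, 178 and 187 CPM after LPS. KO libraries had 233, 235 and 221 CPM in UT and 223, 227 and 234 CPM after LPS. All 6 KO libraries lay above all 6 WT libraries, while the UT and LPS groups of one genotype overlapped. The log2 difference was 0.33 without LPS (SE 0.06, adjusted p = 0.000147) and 0.27 after LPS (SE 0.06, adjusted p = 0.00268). The former was 0.38 with an adjusted p = 0.0818 when the short RNA share was a covariate.

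Cfp encodes properdin. It was at 157, 153 and 158 CPM in WT UT and 210, 187 and 194 CPM in KO UT, and these groups did not overlap. After LPS it was at 265, 296 and 285 CPM in WT and 293, 300 and 282 CPM in KO, where they did. The log2 difference was 0.34 without LPS (SE 0.06, adjusted p = 0.000151), or 0.17 with the short RNA covariate (adjusted p = 0.552), and 0.05 after LPS (95% interval -0.07 to 0.17, adjusted p = 0.645).

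Serping1 encodes the C1 inhibitor, which was barely expressed here. Its counts were 30, 30 and 46 in WT UT and 33, 30 and 39 in KO UT, and 14, 12 and 13 in WT LPS and 44, 41 and 26 in KO LPS. In CPM the KO LPS libraries (1.69, 1.54 and 0.951) were all above the WT LPS libraries (0.522, 0.539 and 0.613), and the UT groups overlapped. The log2 difference after LPS was 1.32 (SE 0.34, adjusted p = 0.0126), and without LPS it was 0.27 (95% interval -0.36 to 0.89, adjusted p = 0.585). Without KO LPS replicate 1 the value after LPS was 1.16 with an adjusted p = 0.0593, and with the short RNA share as a covariate it was 1.40 with an adjusted p = 0.124. Stromal markers moved in the same direction: their sum was 26.7 to 29.4 CPM in WT LPS and 42.9 to 44.2 CPM in KO LPS, and 7 of the 9 tested were called higher in KO LPS. The most abundant of them, Pdgfrb, was at 19.8 ± 0.0497 CPM in WT LPS and 19.7 ± 0.851 CPM in KO LPS. Acta2, the gene of smooth muscle actin, was at 2.99 ± 0.312 CPM in WT LPS and 10.4 ± 0.741 CPM in KO LPS (log2 1.80, adjusted p = 3.50e-08). The defining collagen genes were low but also higher in KO LPS, Col1a1 at 0.291 ± 0.130 against 0.788 ± 0.0557 CPM (log2 1.40, adjusted p = 0.0290) and Col1a2 at 1.05 ± 0.377 against 2.43 ± 0.616 CPM (log2 1.19, adjusted p = 0.00655). The part of these markers in the Serping1 value was not tested.

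The second question was how LPS changed the genes in each genotype. C3 was strongly induced, Cfp rose, and the C1q genes fell in both genotypes. C5ar1 passed the test in neither genotype, although it did so in a few alternative fits given with its values. In WT cells 2 of the 8 genes rose and 3 fell at an adjusted p below 0.05, against 73.3% of all genes tested, 38.0% higher and 35.3% lower. In KO cells 3 rose and 3 fell, against 72.8%, 35.1% higher and 37.7% lower. The fold criterion was passed in each genotype by 1 of 8, C3, against 37.8% of all genes in WT (19.1% higher) and 37.0% in KO (17.7% higher). Groups did not overlap for 6 of 8 genes in either genotype, against 74.8% and 76.0% of all genes. The medians were -0.23 in WT and 0.21 in KO, beside 0.05 and -0.06 over all genes. Most of the 15523 genes tested thus passed the test for LPS, and by the fold criterion the share of the 8 that passed lies below that of all genes.

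C3 rose 8.51-fold in WT (log2 3.09, SE 0.06, adjusted p = 3.06e-21) and 11.6-fold in KO (log2 3.54, SE 0.06, adjusted p = 4.47e-22). KO cells began from the lower UT level, and the LPS levels of the genotypes overlapped. Cfp rose 1.81-fold in WT (log2 0.86, SE 0.06, adjusted p = 1.41e-11) and 1.48-fold in KO (log2 0.56, SE 0.06, adjusted p = 1.38e-08).

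The C1q genes moved the other way. In WT cells the log2 change with LPS was -0.35 for C1qa (SE 0.07, adjusted p = 0.000186), -0.67 for C1qb (SE 0.06, adjusted p = 6.44e-10) and -0.45 for C1qc (SE 0.06, adjusted p = 1.29e-06). In KO cells it was -0.66 for C1qa (SE 0.07, adjusted p = 4.30e-08), -0.49 for C1qb (SE 0.06, adjusted p = 7.43e-08) and -0.70 for C1qc (SE 0.06, adjusted p = 1.25e-09). Of the C1q genes C1qb had the most negative value in WT and the least negative one in KO. With the short RNA share as a covariate, the changes in KO were -0.22 for C1qa (adjusted p = 0.227), -0.17 for C1qb (adjusted p = 0.211) and -0.24 for C1qc (adjusted p = 0.0481), whereas those in WT were -0.56, -0.82 and -0.66. Markers also changed with LPS. Of the 8 macrophage markers 3 rose and 5 fell in WT and 3 rose and 4 fell in KO at an adjusted p below 0.05, from Mertk, a receptor for uptake of dying cells (log2 -2.35 in WT and -2.47 in KO), to Cd14, the LPS co-receptor (2.68 in WT), and the Fc receptor gene Fcgr1 (2.88 in KO). Of the other lists, 1 of 9 stromal markers rose and 2 fell in WT and 5 rose in KO, and 2 of 6 neutrophil markers rose in each while 3 fell in WT and 4 in KO. Of 5 dendritic markers 3 rose and 1 fell in WT, and 2 rose and 1 fell in KO. The B cell marker tested, Cd79b, fell (log2 -2.84 in WT and -3.25 in KO). Lck, the T cell marker tested, rose (5.52 in WT and 5.24 in KO). The stromal sum was 11.0 CPM in WT UT and 26.7 to 29.4 CPM in WT LPS, and the stromal gene Pdgfrb alone changed by 4.36 in WT and 3.95 in KO on the log2 scale. The neutrophil sum was 66.2 to 70.4 CPM in WT UT and 84.7 to 113 CPM in WT LPS. The part of these markers in the LPS changes was not tested.

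The receptors differed from each other in their response. C3ar1 rose in KO cells (log2 0.43, SE 0.06, adjusted p = 8.04e-07), although with the short RNA covariate this was 0.12 (adjusted p = 0.377). Its log2 change in WT cells was -0.11 (95% interval -0.23 to 0.01, adjusted p = 0.0841), and it passed in 6 of 15 alternatives. In these it was between -0.16 and -0.30, the latter under upper-quartile scaling (adjusted p = 2.63e-05), and without WT LPS replicate 1 it was -0.18 (adjusted p = 0.0011). For C5ar1 the log2 change was 0.05 in WT (95% interval -0.07 to 0.17, adjusted p = 0.459) and -0.01 in KO (95% interval -0.13 to 0.11, adjusted p = 0.876), and its sign depended on the scaling. It passed in 2 of 15 alternatives in WT, upper-quartile scaling (-0.14, adjusted p = 0.0264) and protein-coding genes alone (0.12, adjusted p = 0.0388), and in 1 of 15 in KO, upper-quartile scaling (-0.20, adjusted p = 0.00239). Serping1 gave -0.49 in WT (95% interval -1.20 to 0.22, adjusted p = 0.203) and 0.56 in KO (95% interval -0.07 to 1.19, adjusted p = 0.0996). The plot of log2 fold changes sets the genotype differences beside the LPS responses.

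**Figure D3:**
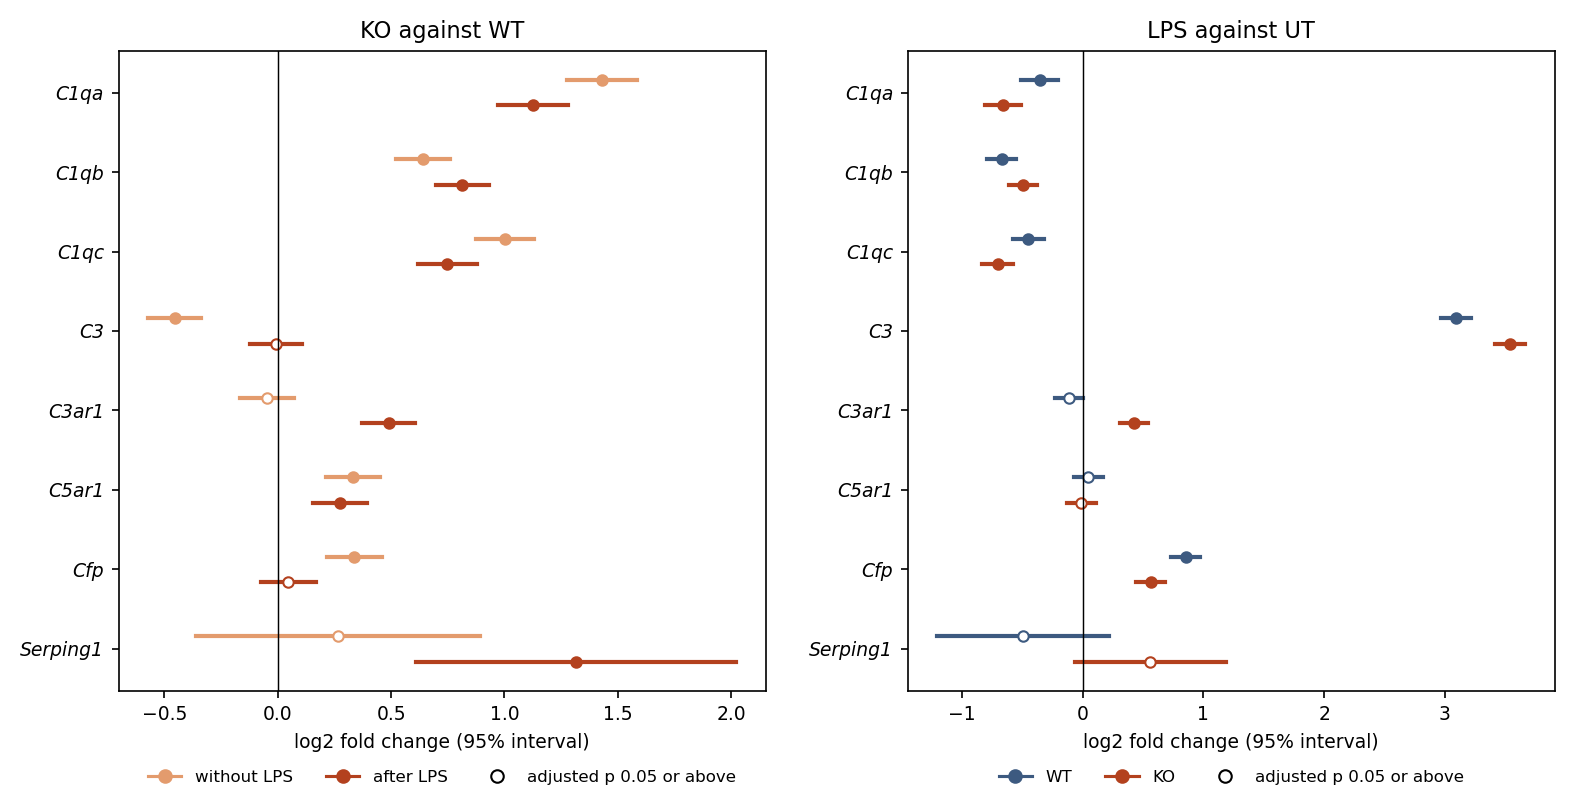
Log2 fold changes of the 8 genes with 95% intervals (horizontal axes): KO against WT without and after LPS on the left, and LPS against UT in WT and KO on the right. Filled points passed an adjusted p below 0.05. On the left the C1q genes lie to the right of 0 in both states and C3 lies at -0.45 without LPS and at -0.01 after it, and on the right only C3 lies beyond 1 (3.09 and 3.54).

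The third question was whether the LPS response itself differed between the genotypes, tested as the interaction of genotype and LPS. At an adjusted p below 0.05 the response was more positive in KO for 2 of 8 genes (C3 and C3ar1) and more negative for 3 (C1qa, C1qc and Cfp), against 16.8% of all genes, 7.32% more positive and 9.50% more negative. The fold criterion was passed by 0 of 8 in edgeR (1 of 8 at an unadjusted p below 0.05, 0 by DESeq2), against 2.16% of all genes. For C3ar1 the difference of the responses was 0.54 (SE 0.08, adjusted p = 0.000131), and for C3 it was 0.45 (SE 0.08, adjusted p = 0.000461). Each of these passed in 19 of 20 alternatives, all but the short RNA covariate, where they were 0.10 (adjusted p = 0.849) and 0.23 (adjusted p = 0.598). For Cfp it was -0.29 (SE 0.08, adjusted p = 0.0170), which passed in 15 of 20 alternatives. It did not pass with the short RNA covariate (-0.0422, adjusted p = 0.96), under RLE scaling (-0.21, adjusted p = 0.0692) or without WT UT replicate 2, KO UT replicate 1 or WT LPS replicate 2 (-0.28 to -0.24, adjusted p = 0.05 to 0.06). The differences of C1qa (-0.31, SE 0.10, adjusted p = 0.0457) and C1qc (-0.25, SE 0.09, adjusted p = 0.0499) lay at the threshold and passed in 6 and 4 of 20 alternatives. With the replicate number as a block their adjusted p were 0.0760 and 0.0923, and with the short RNA covariate both changed sign, to 0.34 and 0.41. For C1qb the difference was 0.17 (95% interval 0.01 to 0.34, adjusted p = 0.149), but it passed in 4 of 20 alternatives. These were RLE scaling (0.25, adjusted p = 0.0289), DESeq2 (0.25, adjusted p = 0.0103), the short RNA covariate (0.65, adjusted p = 0.0291) and the fit without WT LPS replicate 3 (0.23, adjusted p = 0.0282). For C5ar1 the difference was -0.06 (95% interval -0.23 to 0.11, adjusted p = 0.688) and for Serping1 1.05 (95% interval 0.10 to 2.00, adjusted p = 0.126).

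Other genes with profiles like these were sought among 9078 protein-coding genes with a mean of at least 5 CPM, by the root mean square (RMS) difference of centred log2 CPM over the 12 libraries. The gene nearest to the mean profile of the C1q genes was Nnt, with an RMS difference of 0.09. Nnt encodes a mitochondrial transhydrogenase and is known to be defective in the C57BL/6J substrain. It was at 25.8 CPM in WT UT, 51.2 in KO UT, 17.0 in WT LPS and 30.4 in KO LPS. Next came Cltb (RMS 0.24), Apoe (0.24), Cd36 (0.26) and Ifi27 (0.26). Apoe, an apolipoprotein that macrophages secrete in quantity, averaged 1386 CPM in WT UT and 3988 CPM in KO UT. The genes nearest to C3 were Tap1 (RMS 0.07), which transports peptides for MHC class I, Slfn8 (0.10), Gm4951 (0.10), the double-stranded RNA sensor Tlr3 (0.11) and Tnip1 (0.11). Tap1 averaged 93.6 CPM in WT UT, 72.4 in KO UT, 852 in WT LPS and 873 in KO LPS. Among the 8 genes themselves, C1qb and C1qc (RMS 0.14), C3ar1 and C5ar1 (0.18) and C1qa and C1qc (0.21) were the closest pairs, and C3 was 1.33 or more from every other member.

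Around the 8 genes, 48 other complement genes were listed by role, of which 24 passed the filter on low counts. Without LPS, 1 of 24 was higher in KO and 3 were lower at an adjusted p below 0.05, beside 14.1% and 9.69% of all genes. After LPS 6 were higher, beside 7.78% of all genes, and 0 were lower by edgeR (1 lower at an unadjusted p below 0.05, 0 by DESeq2), beside 6.54%. Their median log2 difference was 0.0044 without LPS and 0.20 after LPS. In each state 1 of 24 passed the fold criterion, and it was Cd59a in both, against 1.82% of all genes without LPS and 1.25% after LPS. Of the 6 that were higher after LPS, 4 were receptors (C5ar2, Itgam, Itgax and Cd93) and 2 were membrane regulators (Cd59a and Cr1l). Over 15 alternatives 1 to 2 were higher and 0 to 4 lower without LPS, and 3 to 6 were higher and 0 to 1 lower after LPS.

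Cd59a encodes a membrane protein that stops the terminal complex from forming pores in the cell's own membrane. It had 4.87, 4.24 and 3.89 CPM in WT UT and 11.3, 13.7 and 11.7 CPM in KO UT, and 1.98, 2.11 and 1.65 CPM in WT LPS and 4.98, 5.52 and 4.68 CPM in KO LPS. KO was above WT in every library of a treatment, by 1.50 on the log2 scale without LPS (SE 0.12, adjusted p = 2.22e-08) and 1.40 after LPS (SE 0.16, adjusted p = 7.55e-06). Its neighbour Cd59b is a close copy, and how reads shared by such copies were counted is not stated, so the value is uncertain. Genes lower in KO without LPS, named after their values were seen, included the C1r protease gene C1ra (log2 -0.35, adjusted p = 0.0270) and the integrin subunit gene Itgb2 (-0.18, adjusted p = 0.00909). With the short RNA share as a covariate 0 of the 24 genes were lower without LPS at an adjusted p below 0.05 in edgeR (3 at an unadjusted p below 0.05), so these calls were lost, whereas by DESeq2 without the covariate 4 were lower.

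LPS moved many of these genes in either direction. By the fold criterion 6 of 24 rose and 7 fell in WT, and 7 rose and 6 fell in KO, beside 19.1% higher and 18.7% lower of all genes in WT and 17.7% and 19.3% in KO. All of the C3 convertase genes called (3 of 4 tested in each genotype) rose. Cfb, the protease of the alternative C3 convertase, had 3, 9 and 0 counts in WT UT and 181, 212 and 247 in WT LPS, a log2 change of 6.64 (SE 0.38, adjusted p = 5.88e-13). In KO UT it had 0, 1 and 2 counts and in KO LPS 180, 249 and 210, at least 95.4-fold higher when each KO UT library is set to a floor of 3 counts. C1ra rose by 2.77 in WT (SE 0.09, adjusted p = 5.15e-17) and 3.32 in KO (SE 0.10, adjusted p = 4.61e-18) on the log2 scale. The partner protease gene C1s1, at 1 to 13 counts in the UT libraries, rose by 3.02 in KO (SE 0.55, adjusted p = 4.57e-05). The second C5a receptor gene, C5ar2, fell by 2.78 in WT on the log2 scale (SE 0.15, adjusted p = 2.12e-13), from 12.6, 12.2 and 9.87 CPM to 1.79, 1.89 and 1.32 CPM.

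The LPS response differed between the genotypes at an adjusted p below 0.05 for 3 of the 24 genes, all more positive in KO, against 16.8% of all genes and 7.32% more positive. They were C1ra (0.55, SE 0.14, adjusted p = 0.00787), C5ar2 (0.65, SE 0.21, adjusted p = 0.0406) and Cd93 (0.36, SE 0.08, adjusted p = 0.00233). The fold criterion was passed by 0 of the 24 in edgeR (1 at an unadjusted p below 0.05, 0 by DESeq2), against 2.16% of all genes. The number passing at an adjusted p below 0.05 ranged from 0 to 5 higher and 0 to 1 lower over 20 alternatives. With the short RNA share as a covariate none of the 24 passed in edgeR (3 higher and 2 lower at an unadjusted p below 0.05), so the calls of C1ra, C5ar2 and Cd93 were lost. The plot of other complement genes gives 23 of the 24 with their intervals.

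**Figure D4:**
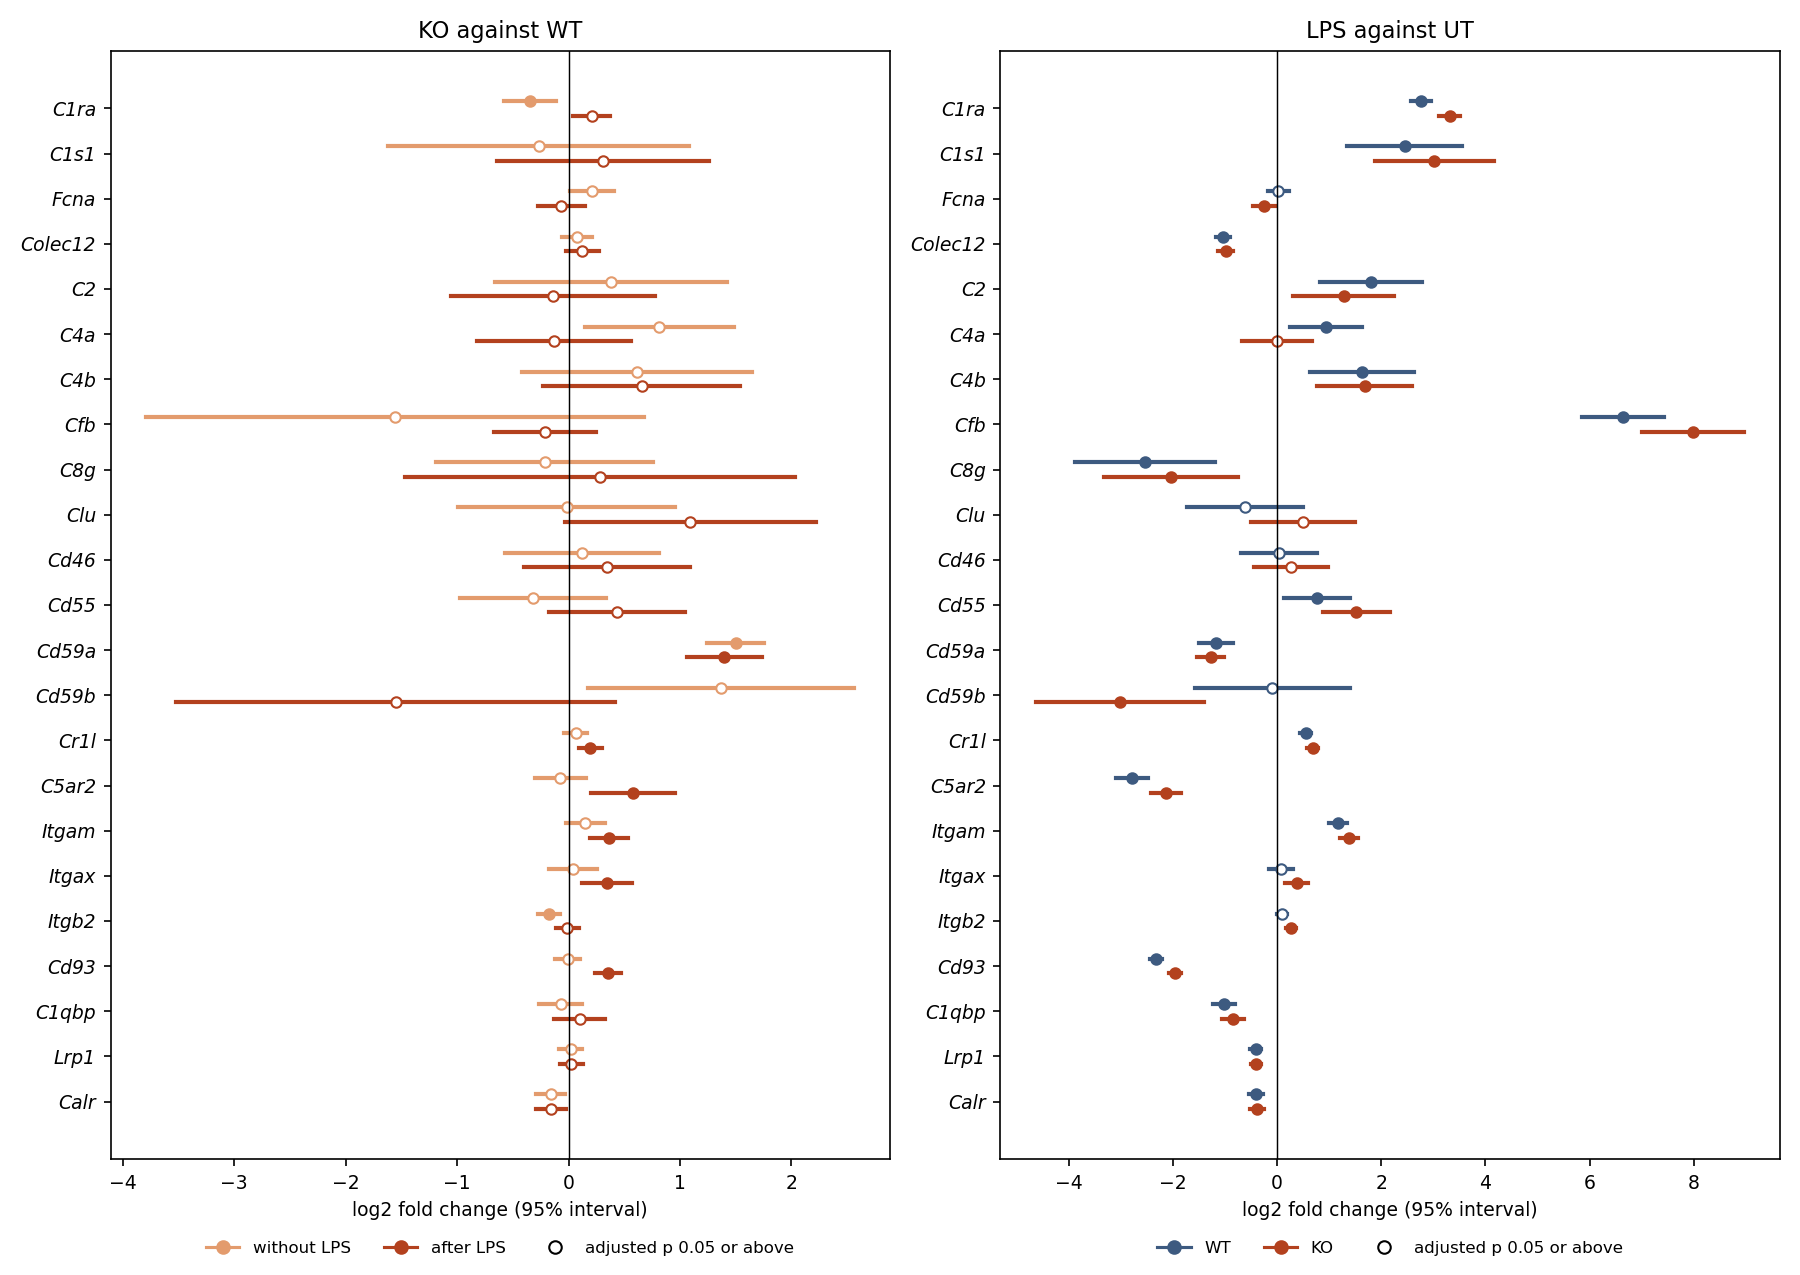
Log2 fold changes with 95% intervals (horizontal axes) of 23 of the 24 other complement genes that passed the filter on low counts, KO against WT on the left and LPS against UT on the right; filled points passed an adjusted p below 0.05. On the left most points lie near 0 and Cd59a lies at 1.50 and 1.40. Cfb without LPS (-1.56) and Cd59b (1.37 without and -1.55 after LPS) rest on few counts and have wide intervals. On the right Cfb, C1ra and C1s1 lie far to the right, and C5ar2, Cd93 and, in KO, Cd59b (-3.01) are among those far to the left.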

How the data were processed

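Total RNA libraries of BMDMs were analysed, 3 in each of 4 groups taken from the labels. Libraries were made by the authors with a stranded total RNA kit that removes globin RNA. By the submitters' processing notes FastQC 0.11.9, HISAT2 2.1.0, SAMtools 1.17 and featureCounts 2.0.0 were used with GRCm38, and the deposited values are raw counts per gene, before any filter. The annotation release, strand setting and handling of multi-mapping reads are not given in the sources used here, so genes with overlaps or close copies are uncertain.

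The 8 genes, the other gene lists, the motifs and the short RNA covariate were chosen with earlier results of these data known. Symbols came from GENCODE (GRCm38), which matched 48144 of 48526 identifiers. The quasi-likelihood test of edgeR 4.0.16 (limma 3.58.1, R 4.3.3) was run with TMM scaling on all 12 libraries in one model of group means. Genes were kept by filterByExpr (minimum count 10, minimum total 15), which left 15523 genes with 99.96% of counts, and p-values were adjusted over them (Benjamini-Hochberg), at a common biological coefficient of variation of 0.0712. The fold criterion, an adjusted p below 0.05 with an absolute log2 fold change above 1, is that of the study, which used DESeq2. The model was tested on simulated data before use. CPM per kilobase used the union exon length. Lower bounds use a floor of 3 counts per library. Intervals and bounds cover counting error and library spread only, as PCR copies of a molecule were not told apart.

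The 8 genes are always named. Of the other complement genes, those called between genotypes or in the interaction and the 3 largest called LPS responses per genotype are named by rule, and other names were added after their values were seen. Of these genes 1 is counted but not reported here by name. By profile, 5 genes nearest to the C1q mean and 5 nearest to C3 are named (CPM plus 0.5, log2).

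Libraries of one replicate number carry the same batch number, but what the batch was, and whether it pairs them, is not stated. Deviations from group means correlated at -0.0631 to 0.0373 over 18 same-number pairs, with 0 above 0.1. Replicates differed by more than counting noise (chi-square per degree of freedom at least 3.80), and all 12 were kept. Alternatives were RLE and upper-quartile scaling, DESeq2 1.42.0, no filter, a mean of at least 1 CPM, the block, the compared groups alone, protein-coding genes alone, the short RNA share as a covariate, and each library left out. Short structured RNAs are the snRNA, snoRNA, scaRNA, misc_RNA, ribozyme, rRNA and mitochondrial rRNA classes. The name is a label, and no limit on length was set. Plots used Python 3.11.15 and matplotlib 3.10.9.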

Additional observations from a re-analysis of the deposited data

Results flagged for a closer look

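Of the 8 genes, 5 had an LPS response that differed between KO and WT by the interaction test of edgeR at an adjusted p below 0.05, against 16.8% of all genes. For C3ar1 the difference of the log2 responses (KO minus WT) was 0.54 (adjusted p = 0.000131). For C3 it was 0.45 (adjusted p = 0.000461), with LPS levels that overlapped between the genotypes. For Cfp it was -0.29 (adjusted p = 0.0170), for C1qa -0.31 (adjusted p = 0.0457) and for C1qc -0.25 (adjusted p = 0.0499). With the replicate number as a block C1qa and C1qc did not pass (adjusted p = 0.0760 and 0.0923). The share of short structured RNAs was higher in KO UT (8.04 to 9.14%) than in the other groups (4.30 to 7.71%), and with it as a covariate none of these 5 passed, whereas the difference of C1qb, 0.17 without the covariate (adjusted p = 0.149), was 0.65 and passed (adjusted p = 0.0291). The share in KO UT did not overlap that of the other groups, so the share and the group cannot be told apart, and its part in the differences was not tested.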

How the results depend on the processing

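Of the alternative fold changes of the 8 genes, 606 kept their direction and their side of the fold criterion, 11 lost the call and 18 changed sign. The 11 lost calls were those of C1qc without LPS (8), C1qa without LPS (0.99 with the short RNA covariate) and Serping1 after LPS (2). The number of genes called between KO UT and WT UT was 283 and became 165 at a mean of at least 1 CPM and 117 with the short RNA covariate. Between KO LPS and WT LPS it was 194 and became 116 and 104. For the interaction it was 335, against 186 among protein-coding genes alone and 52 with the covariate, and 196 to 509 when 1 library was left out (lowest without WT LPS replicate 3, highest without WT LPS replicate 1). Leaving out 1 library gave 227 to 299 calls for KO UT against WT UT, 140 to 240 for KO LPS against WT LPS, 5723 to 5834 for the LPS response in WT and 5625 to 5715 in KO. Without LPS, 159 genes were called higher and 124 lower in KO, but 134 and 168 under RLE scaling and 105 and 146 by DESeq2. For the interaction the split was 81 and 254, but 110 and 198 under RLE scaling and 121 and 209 by DESeq2. Upper-quartile scaling moved the median of all genes by -0.18 in both LPS responses.

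Signs changed as follows. With the short RNA covariate C3ar1 was at 0.26 without LPS and at 0.0234 for its WT response, and the interactions of C1qa and C1qc were 0.34 and 0.41. The C3 difference after LPS was 0.0209 with no filter, and -0.0505 to 0.0479 when 1 library was left out (above 0 without WT LPS replicate 1 or KO LPS replicate 2). The WT response of C5ar1 was -0.14 under upper-quartile scaling, -0.0028 with no filter and -0.0051 with the compared groups alone. Its KO response was 0.0247 under RLE scaling, 0.0248 by DESeq2 and 0.0233 with protein-coding genes alone, and -0.0382 to 0.0076 when 1 library was left out (above 0 without KO UT replicate 1, KO UT replicate 2 or KO LPS replicate 1). Its interaction was 0.0218 under RLE scaling and 0.0216 by DESeq2. The cause of these shifts was not tested. Without division by exon length the mean shares were 22.7% for C1qa, 31.2% for C1qb and 46.1% for C1qc, against 29.3, 38.6 and 32.1%, by construction. With the replicate number as a block, 246 genes were called between KO UT and WT UT, 164 between KO LPS and WT LPS and 270 for the interaction, and only the interactions of C1qa and C1qc moved past an adjusted p of 0.05 among the 8 genes. The filter at a mean of 1 CPM left Serping1 out. Depth limits Serping1, with 12 to 46 counts per library, and not the other 7 genes.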
